A study of Mus musculus with 8 samples.

Results

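The genes described here are 10 genes of the extracellular matrix that either tune how cells meet the matrix or join its fibres together: Fn1, Thbs1, Thbs2, Postn, Sparc, Tnc, Fbn1, Lox, Loxl1 and Loxl2. They were chosen by name, with earlier results of these data known. Their rows were found through the GENCODE M21 annotation among 24821 genes in the table. All 10 were present and all 10 passed the filter on low values that left 17798 genes for testing. The tissue was epididymal fat, a visceral white adipose depot of male mice. It came from 4 Ccdc92 knockout (KO) samples and 4 wild type (WT) samples, the WT mice being littermates matched for age, all on a C57BL/6 background. Every mouse, KO and WT, had eaten a high-fat diet for 14 weeks, with 60% of its energy as fat and 20% each as protein and carbohydrate, so no lean group stands beside them. The labels give neither the deleted part of Ccdc92 nor the mice's age, and do not say whether each library came from its own animal. The p-values below therefore reflect variation among these libraries, part of which may be technical.

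Matricellular proteins such as thrombospondins, periostin, tenascin C and SPARC are secreted into the matrix but serve mainly as signals and organisers rather than as scaffolding. Fibronectin and fibrillin 1 form fibrils of their own, on which collagens, elastic fibres and latent growth factors are assembled. Lysyl oxidases are copper enzymes that oxidise lysines of collagen and elastin, which lets the chains crosslink and stiffens the fibres. In obese fat, growth of adipocytes and inflammation are accompanied by matrix deposition around the cells, known as fibrosis.

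Of the 10 genes, 1 was higher in KO fat (Thbs1), 2 were lower (Thbs2 and Postn) and 7 did not pass the test, which was limma on log2(normalized count + 1) with Benjamini-Hochberg adjustment over all genes tested. That is 3 of 10 called, in a comparison where 41.7% of all genes were called, 20.2% higher and 21.5% lower in KO. The share among these genes was thus no larger than the background. Their median log2 fold change was -0.38, against -0.007 over all genes tested. Postn was the only member whose KO and WT values did not overlap, where 42.1% of all genes did not overlap. Of the 3 calls, none was kept without WT replicate 3, and only 1 was kept without WT replicate 1 or without KO replicate 3.

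Libraries held 23681088 to 33817478 reads assigned to genes, and the members had at least 321 reads in every library (Tnc, the lowest), so counting error was small beside the spread between libraries. The targeted gene Ccdc92 had normalized counts of 9.2, 5.1, 9.7 and 4.9 in KO replicates 1 to 4, against 54.1, 68.3, 105.8 and 99.2 in WT replicates 1 to 4. Adipocyte markers were abundant in all 8 libraries, with a summed level over 12 genes of 1335940 to 1724149.9 in KO and 280307.3 to 616246.8 in WT. Some libraries stood apart. KO replicate 3 carried platelet and megakaryocyte transcripts (summed level over 9 genes 3738.5, against 1007.8 to 1128 in the other KO libraries). WT replicate 4 carried smooth muscle transcripts (82943 over 11 genes, against 16809 to 29551.2 in the other WT libraries). Markers of epididymis and vas deferens set the whole groups apart, summing to 9.7 to 1398.4 in KO and to 55383.2 to 119666.5 in WT. Of these, Akr1b7 stood at 80635.9 in WT replicate 4, against 188.1 to 211.6 in the other WT libraries. Leaving out single libraries cannot remove this difference between the groups. Its part in the changes of matrix genes cannot be told apart from that of the genotype. In bulk tissue, fewer cells of a type and less RNA per cell cannot be told apart.

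The RefSeq promoter table matched 5 of the 10 members (Thbs2, Postn, Sparc, Tnc and Fbn1), and upstream sequence is shown for Postn and Thbs2, the members that were lower in KO. Each window holds the 250 bases before a RefSeq transcript start on GRCm38.p6, read 5′ to 3′ on the strand of the gene. Capitals mark matches to TATAAA or to CAGACA, a short element bound by SMAD proteins, on either strand. Postn, chr3:54360857-54361106, plus strand, and Thbs2, chr17:14694263-14694512, minus strand, read as follows.
Postn: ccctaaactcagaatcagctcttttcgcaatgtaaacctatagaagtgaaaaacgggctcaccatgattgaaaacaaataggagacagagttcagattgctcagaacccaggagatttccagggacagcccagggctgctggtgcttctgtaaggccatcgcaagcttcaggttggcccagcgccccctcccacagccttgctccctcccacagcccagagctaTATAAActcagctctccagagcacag
Thbs2: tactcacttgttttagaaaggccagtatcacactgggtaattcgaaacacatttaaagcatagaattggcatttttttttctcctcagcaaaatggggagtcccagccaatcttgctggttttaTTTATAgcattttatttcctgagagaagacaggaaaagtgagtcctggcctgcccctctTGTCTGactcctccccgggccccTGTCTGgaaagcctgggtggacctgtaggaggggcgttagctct
In the Postn window TATAAA begins 26 bases before the start (position -26), and no CAGACA was found. Postn has another listed start, whose upstream window (chr3:54359017-54359266) is not printed and holds none of the motifs searched. The Thbs2 window holds the CAGACA element on the other strand at positions -67 and -44, and TATAAA on the other strand at -126. Neither window holds TGANTCA, the element of AP-1 factors, or GGAATG, the element of TEAD factors. Among 32851 upstream windows of the same length, 12.4% hold TATAAA, 17.1% CAGACA, 6.75% TGANTCA and 12.6% GGAATG on either strand. Such a match describes these letters and is not a binding site.

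Thbs1 encodes thrombospondin 1, which binds CD36 and CD47, inhibits vessel growth and can activate latent TGF-beta. It lies on chromosome 2 (118111876 to 118127133, plus strand, GRCm38). Its normalized counts were 6066.2, 8257.5, 10328.7 and 18498.1 in KO replicates 1 to 4, against 3185.9, 6250.9, 2415.4 and 4623.6 in WT replicates 1 to 4. The groups overlapped only in that KO replicate 1 lay just below WT replicate 2, and KO replicate 4 was the highest of all. The means were 10787.6 ± 5426.9 in KO and 4118.9 ± 1690.4 in WT (SD, n = 4 each). Thbs1 was thus 2.56-fold higher in KO, a log2 fold change of 1.36 with an SE of 0.39 (limma adjusted p = 0.0226). Its limma adjusted p was 0.0593 without WT replicate 1, 0.0596 without WT replicate 3 and 0.0539 without KO replicate 3.

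Platelets are rich in thrombospondin 1 protein. Of the platelet and megakaryocyte list, 0 of 7 tested genes were higher in KO by limma, edgeR or DESeq2, and 0 at an unadjusted p under 0.05. Pf4 was lower, at -0.27, a call lost without WT replicate 3 or 4 or without KO replicate 1, 2 or 4, and 3 genes were lower without KO replicate 3. KO replicate 3, where Ppbp stood at 980.3 against 25.5 to 41 in the other KO libraries, had 10328.7 of Thbs1, below KO replicate 4 alone (18498.1). Leaving it out gave a log2 fold change of 1.34. Adipocyte markers were higher in KO alongside Thbs1, in 11 of 12 genes, and the mesothelium sum was highest in KO replicate 4 (18991.7, against 3155.8 to 7502.8 in the other KO libraries), the library highest in Thbs1. Without KO replicate 4 the log2 fold change of Thbs1 was 1.06. The part of platelets, adipocytes and mesothelium in the change of Thbs1 was not tested.

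Thbs2 encodes thrombospondin 2, a relative known for effects on collagen fibril assembly and on the clearance of matrix proteases. Its gene is on chromosome 17 (14665500 to 14694235, minus strand). Normalized counts were 1537.5, 1598, 2154.1 and 2278.8 in KO replicates 1 to 4, against 3069.4, 2228.2, 2972.4 and 2503.7 in WT replicates 1 to 4. KO replicate 4 lay above WT replicate 2, and the other KO libraries lay below every WT library. The mean fell to 1892.1 ± 378.8 in KO, against 2693.4 ± 396.5 in WT (SD, n = 4 each). On the log2 scale the change was -0.52, with an SE of 0.16 (limma adjusted p = 0.0314). The limma adjusted p was 0.0779 without WT replicate 1, 0.0839 without WT replicate 3, 0.0788 without KO replicate 1 and 0.0758 without KO replicate 2. It was 0.0852 when every gene was set relative to the mean of a fibroblast marker list.

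Postn encodes periostin, a product of fibroblasts that binds collagen and helps lysyl oxidase reach it. The gene spans 54361109 to 54391037 on the plus strand of chromosome 3. Normalized counts were 4980.3, 7795.2, 3838.5 and 4341.6 in KO replicates 1 to 4, against 23224.7, 7900.1, 13573.6 and 8734.9 in WT replicates 1 to 4. All 4 KO libraries lay below all 4 WT libraries, KO replicate 2 only narrowly below WT replicate 2. The mean fell to 5238.9 ± 1767.1 in KO, against 13358.3 ± 7037 in WT (SD, n = 4 each). Periostin transcripts were thus 2.41-fold lower in KO, a log2 fold change of -1.27 with an SE of 0.36 (limma adjusted p = 0.0219). The limma adjusted p was 0.0562 without WT replicate 3, 0.0606 without KO replicate 3 and 0.0554 without KO replicate 4. Without WT replicate 1, the highest library, the log2 fold change was -0.96 and still past the threshold.

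Tnc encodes tenascin C, a hexameric glycoprotein induced at sites of injury and inflammation (chromosome 4, 63959785 to 64047015, minus strand). It was the least abundant member. Normalized counts were 826.2, 971.6, 583.7 and 389.3 in KO replicates 1 to 4, against 866, 1100.2, 870.7 and 1035.6 in WT replicates 1 to 4. KO replicate 2 fell inside the WT range and the other KO libraries below it. Tnc did not pass, with a log2 fold change of -0.56 and an SE of 0.26 (limma adjusted p = 0.12). Without KO replicate 2 it was -0.75 and past the threshold (limma adjusted p = 0.0421).

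Sparc encodes SPARC (osteonectin), which binds collagen and is made in quantity by fat. The gene is on chromosome 11 (55394500 to 55423183, minus strand). Normalized counts were 116244.2, 164135, 70105.8 and 49456 in KO replicates 1 to 4, against 66758, 117901.1, 79477.2 and 98938.2 in WT replicates 1 to 4. The KO libraries held both the highest and the lowest of the 8 values. The mean was 99985.2 ± 51073.6 in KO and 90768.6 ± 22412.2 in WT (SD, n = 4 each). Its log2 fold change was 0.02 with an SE of 0.37 (limma adjusted p = 0.965). Its sign turned under quantile normalization (-0.21) and when single libraries were left out.

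**Figure D1:**
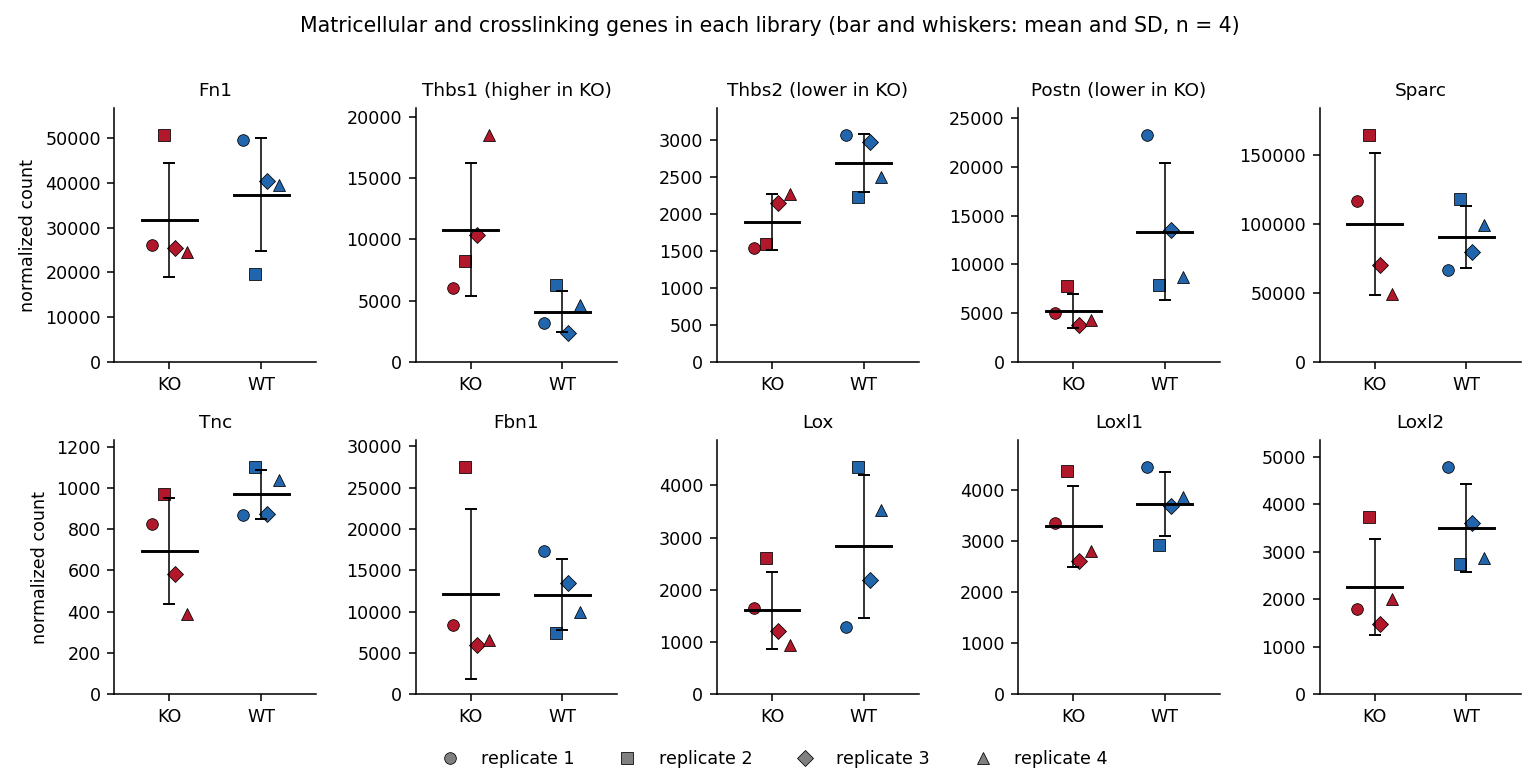
Each panel plots the normalized count (y axis, linear and starting at 0) of 1 gene in the 4 KO (red) and 4 WT (blue) libraries, with a marker shape per replicate number, a bar for the mean and whiskers for the SD. Postn is the member without overlap, its KO values reaching 7795.2 and its WT values starting at 7900.1, and the square of KO replicate 2 stands on top in 8 of the 10 KO columns.

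Fn1 encodes fibronectin, a scaffold on which other matrix proteins are laid down and a ligand of integrin alpha-5 beta-1 (chromosome 1, 71585520 to 71653200, minus strand). Normalized counts were 26030, 50606.2, 25446 and 24564.3 in KO replicates 1 to 4, against 49624.3, 19664.3, 40464.5 and 39612.9 in WT replicates 1 to 4. In KO, 3 libraries lay close together and replicate 2 was about as high as the highest WT library. In WT, replicate 2 was the lowest of all 8. Fn1 did not pass under any of the alternatives run, its log2 fold change being -0.23 with an SE of 0.33 (limma adjusted p = 0.604).

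Fbn1 encodes fibrillin 1, the backbone of the microfibrils around elastic fibres and the precursor of the adipose hormone asprosin (chromosome 2, 125300594 to 125507993, minus strand). Normalized counts were 8396.6, 27481.3, 5903.3 and 6578 in KO replicates 1 to 4, against 17300.7, 7413.5, 13436.2 and 9940.9 in WT replicates 1 to 4. KO replicate 2 was higher than every other library and 4.65 times the lowest KO library (fold of highest over lowest), the widest spread of any member within a group. With an SE of 0.49, its log2 fold change was -0.23 (limma adjusted p = 0.726), and it was -0.73 without KO replicate 2 (limma adjusted p = 0.0796). The count models gave 0.03 (edgeR) and 0.01 (DESeq2), so no direction is given for Fbn1.

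Lox encodes lysyl oxidase, the founding enzyme of the family (chromosome 18, 52516067 to 52529867, minus strand). Normalized counts were 1657, 2611.5, 1217.9 and 936.2 in KO replicates 1 to 4, against 1277.8, 4350.6, 2188 and 3522.4 in WT replicates 1 to 4. WT replicate 1, the lowest WT library, and WT replicate 3 lay inside the KO range. The WT values spread 3.4-fold from lowest to highest. Lox did not pass, with a log2 fold change of -0.78 and an SE of 0.43 (limma adjusted p = 0.176), and it was -1.11 without WT replicate 1 (limma adjusted p = 0.054).

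Loxl1, the relative needed for the renewal of elastic fibres, lies on chromosome 9 (58287738 to 58313186, minus strand). It had normalized counts of 3355.4, 4371.9, 2607.7 and 2800.2 in KO replicates 1 to 4, against 4446.2, 2930.2, 3687.2 and 3861.4 in WT replicates 1 to 4. The groups covered nearly the same range. Loxl1 did not pass either, with a log2 fold change of -0.20 and an SE of 0.18 (limma adjusted p = 0.413).

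Loxl2, a relative with scavenger receptor domains that crosslinks collagen IV of basement membranes, lies on chromosome 14 (69609068 to 69695834, plus strand). Normalized counts were 1800.7, 3736.9, 1474.8 and 1996.2 in KO replicates 1 to 4, against 4779.2, 2744.6, 3601.8 and 2862.3 in WT replicates 1 to 4. KO replicate 2 lay inside the WT range and the other 3 KO libraries below it. Loxl2 did not pass, with a log2 fold change of -0.69 and an SE of 0.29 (limma adjusted p = 0.0901). It was past the threshold without KO replicate 2 (-0.97, limma adjusted p = 0.0099) and relative to the fibroblast list mean (-0.66, limma adjusted p = 0.0482). An antisense transcript, Gm27177, shares 5.57% of the merged exon length of Loxl2 and had at most 295.7 normalized counts. Likewise Gm9913 shares 20.14% of that of Fbn1, with at most 10.3 normalized counts. The strand setting of the counting is not given in the sources used here, so reads of such a pair cannot be told apart.

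**Figure D2:**
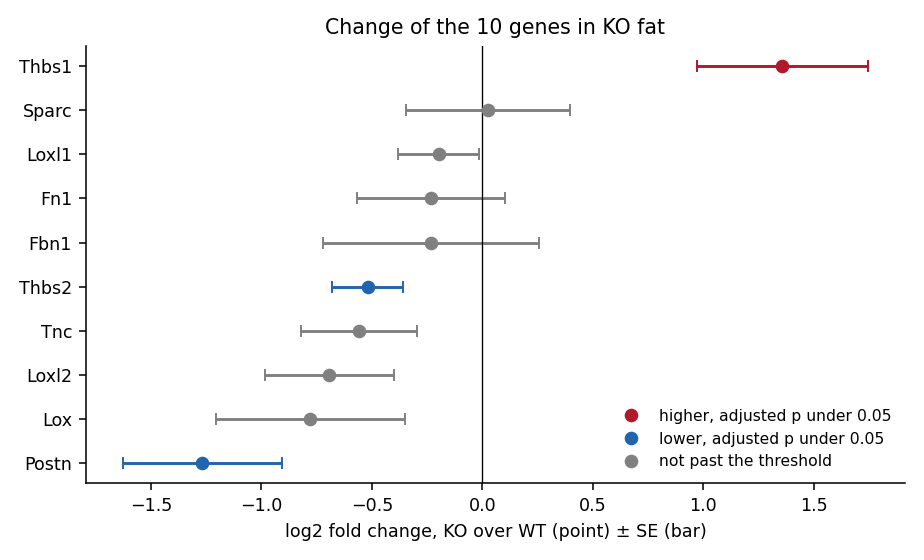
Points give the log2 fold change (x axis, KO over WT) of each of the 10 genes (y axis) with bars of 1 SE, coloured by whether the limma adjusted p was under 0.05. Thbs1 at 1.36 lies alone on the right, Postn at -1.27 is the farthest left, and 8 of the 10 estimates are below 0.

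Related members were also set against each other within each library. The normalized counts of Thbs1 were 3.94, 5.16, 4.79 and 8.11 times those of Thbs2 in KO replicates 1 to 4, against 1.04, 2.8, 0.81 and 1.85 times in WT replicates 1 to 4. All 4 KO ratios lay above all 4 WT ratios. The mean log2 ratio was 2.41 ± 0.44 in KO and 0.53 ± 0.81 in WT (SD, n = 4 each), a difference of 1.88. By exact permutation of the libraries (70 splits, two-sided) p was 0.0286, the lowest value possible here, and 0.114 after Benjamini-Hochberg adjustment over the 4 ratios computed. Even at this lowest p a single ratio could not pass alone after that adjustment, so the test could not decide on the difference. The log2 ratio of Loxl1 over Loxl2 was 0.61 ± 0.31 in KO and 0.11 ± 0.23 in WT (SD, n = 4 each, exact permutation p = 0.0571, adjusted 0.114). Lox over Loxl1 (a difference of -0.58, exact permutation p = 0.343, adjusted 0.457) and Lox over Loxl2 (-0.09, exact permutation p = 0.943) overlapped between groups.

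Levels of different genes were compared as normalized count per kilobase of merged exon length. Sparc was far above the rest, at 26395.3 ± 13483 per kilobase in KO and 23962.1 ± 5916.6 in WT (SD, n = 4 each). Fn1 came next, at 2709.6 ± 1082.1 in KO and 3195.7 ± 1080.5 in WT, and Tnc was last, at 89.1 ± 33.2 in KO and 124.6 ± 15.2 in WT. In both groups the range of Sparc lay above that of Fn1, and the range of Tnc below that of Thbs2, the next lowest. All other neighbours in the order overlapped in their ranges. In KO the order below Fn1 was Thbs1, Fbn1, Loxl1, Postn, Loxl2, Lox and Thbs2. In WT it was Postn, Loxl1, Fbn1, Thbs1, Loxl2, Lox and Thbs2. Thbs1 and Postn changed places, Thbs1 having rank 3 in KO and 6 in WT, and Postn rank 6 in KO and 3 in WT. The group means of the 3 lysyl oxidases had the order Loxl1, Loxl2, Lox in KO and in WT, but single libraries did not all keep it. Lox was above Loxl2 in KO replicate 1 and in WT replicates 2 and 4, and above Loxl1 in WT replicate 2.

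Many of the members shared their order of libraries within a group, but not all. KO replicate 2 was the highest KO library for 8 of 10 members, all but Thbs1 and Thbs2, which were highest in KO replicate 4 and lowest in KO replicate 1. The summed normalized count of all 10 was 170894, 271565, 123660 and 111839 in KO replicates 1 to 4, against 174532, 172484, 162687 and 175636 in WT replicates 1 to 4. As a share of reads this was 0.34% to 0.942% in KO and 0.608% to 0.658% in WT. KO replicate 3 had the lowest share, though not the lowest sum. Its normalized counts over all genes summed to 36350260.3, against 28140363 to 28831707 in the other KO libraries. Sparc alone made up 44.2% to 68% of the summed count of the 10 members in KO and 38.2% to 68.4% in WT. In WT, replicates 1 and 2 sat at opposite ends. Fn1, Fbn1, Postn, Thbs2, Loxl1 and Loxl2 were highest in WT replicate 1 and lowest in WT replicate 2. Sparc, Tnc and Lox were highest in WT replicate 2 and lowest in WT replicate 1. Thbs1 had neither order, being highest in WT replicate 2 and lowest in WT replicate 3.

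Marker sums of cell types moved alongside. Macrophage markers summed to 311967.7, 141493.8, 225482.8 and 166635.1 over 12 genes in WT replicates 1 to 4, and 5 members (Fn1, Thbs2, Postn, Fbn1 and Loxl2) had the same order of WT libraries. Adipocyte markers summed to 280307.3, 616246.8, 381681.2 and 509382.8 over 12 genes, and Sparc, Tnc and Lox had that order of WT libraries. The order of the endothelium sum matched those of Sparc, Tnc and Lox in both groups. Among KO libraries the endothelium sum differed little, from 42639.1 to 45877.1. In KO the macrophage sum was 69431.2, 68683.2, 48878.7 and 44025.3 in replicates 1 to 4, and no member had its order or that of the adipocyte sum. The fibroblast and adipocyte progenitor sum was 297715.1, 308606.9, 420260.6 and 434272.5 in KO replicates 1 to 4, the order of Thbs1 and Thbs2 there, and no member had its order in WT. Gsn alone held 249572.5, 247323.3, 363600.7 and 366189.9 of that KO sum. By mean log2 level the list stood at 11.98, 12.41, 12.05 and 12.26 in KO replicates 1 to 4, not the order of Thbs1 or Thbs2. KO replicate 2 had the lowest mesothelium sum of the KO libraries, 3155.8. With 4 libraries a group these orders are descriptions, and the part of cell makeup in them was not tested.

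Lysyl oxidases act on fibrillar collagens, and the chains of collagens I and III were lower in KO. Col1a1, the main chain of collagen I, had 13764.9 ± 6615 normalized counts in KO and 35939.7 ± 6505.7 in WT (SD, n = 4 each), Col1a2 25515.5 ± 8180.5 in KO and 50767 ± 8273.4 in WT, and Col3a1 48712.8 ± 30472.4 in KO and 121731.9 ± 30377.3 in WT. Their log2 fold changes were -1.48, -1.03 and -1.47 (limma adjusted p of 0.00552, 0.00667 and 0.0151). The minor fibrillar chains, named after their values were seen, were mixed: Col5a2 was lower (-0.91), and Col5a1 (-0.43) and Col5a3 (0.67) did not pass. Set relative to the mean log2 level of Col1a1, Col1a2 and Col3a1, 6 of 10 members were higher in KO without overlap (Fn1, Thbs1, Sparc, Fbn1, Loxl1 and Loxl2) and 0 were lower. On that scale 58.9% of all genes tested were higher without overlap and 2.67% lower, so the members' share was near the background. Postn averaged -2.24 in KO and -2.3 in WT relative to the collagens on the log2 scale, a KO minus WT difference of 0.06.

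The fibroblast and adipocyte progenitor list, whose cells make much of this matrix, had 1 of 12 genes higher and 3 lower in KO. Gsn, the most abundant, was higher (log2 fold change 1.08), but not past the threshold under quantile normalization. Lum (-1.73), Pdgfrb (-0.55) and Pdgfra (-0.49), named after their values were seen, were lower. The mean log2 level of the list, with members going both ways, was 12.18 in KO and 12.21 in WT. Dcn, a fibroblast proteoglycan, was 23077.9 to 37709.3 in KO and 27561.5 to 34407 in WT, and did not pass. Relative to this list mean, Postn was the only member without overlap between groups, its values being lower in KO, where 14.2% of all genes were lower and 8.95% higher without overlap. All 12 macrophage markers were lower in KO, with a median log2 fold change of -2.06. The part of macrophages in the changes of Thbs2 and Postn was not tested.

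Other matrix genes, in lists that were also chosen with earlier results of these data known, went in both directions. As the background for each list count below, limma called 20.2% of all genes tested higher and 21.5% lower. Among 20 tested matricellular relatives, 2 were higher and 5 lower in KO, and 8 were lower without KO replicate 2. Spp1, which encodes the macrophage product osteopontin, was 29.4-fold lower, at 117.1 ± 83.7 normalized counts in KO and 3635 ± 3040.7 in WT (SD, n = 4 each, log2 fold change -4.88, limma adjusted p = 0.00105). Comp, a cartilage-type thrombospondin, fell by 2.62 on the log2 scale and Ccn4 by 1.83. Tnr, a tenascin with at most 24.8 normalized counts, fell by 2.36. Smoc1, a SPARC relative, rose to 8661.7 ± 1411.4 in KO, against 2391.9 ± 928.8 in WT (SD, n = 4 each, log2 fold change 1.93, limma adjusted p = 0.00132). Ccn3 rose by 1.98.

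Among 23 tested crosslinking and collagen-modifying enzymes, 4 were higher and 5 lower. Pxdn, the peroxidase that crosslinks collagen IV, rose to 13956 ± 2657.2 in KO, against 5850.2 ± 1555.8 in WT (SD, n = 4 each, log2 fold change 1.28, limma adjusted p = 0.0025). F13a1, a transglutaminase of resident macrophages, rose by 0.79, the proline hydroxylase P4ha2 by 0.65 and the low-abundance protease Tll2 by 3.34. Pcolce, which enhances procollagen cleavage, fell by 1.30, the lysyl hydroxylase Plod2 by 0.77 and the lysyl oxidase relative Loxl3 by 0.68. Loxl4, another such relative, named after its values were seen, did not pass (log2 fold change 0.45, limma adjusted p = 0.232). For Loxl3 the limma adjusted p was 0.0517 without WT replicate 1, 0.0538 without WT replicate 3, and 0.0536 without KO replicate 1 or without KO replicate 3. Bmp1, the protease that activates pro-lysyl oxidase, did not pass (log2 fold change -0.35, limma adjusted p = 0.199), but was lower without KO replicate 2 (-0.54, limma adjusted p = 0.0201). Lower enzymes numbered 2 when any 1 of these 4 libraries was left out, and 3 without WT replicate 4.

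Of 19 elastic fibre and microfibril genes, 6 were higher and 5 lower in KO. Adamtsl4, a binder of fibrillin 1, rose by 1.20 on the log2 scale and the latent TGF-beta binding protein Ltbp4 by 0.77. Vwa1 rose by 0.65 and fibulin 5, Fbln5, by 0.52. Mfap2 of microfibrils fell by 1.27, Emilin1 by 0.96, fibulin 2, Fbln2, by 0.61 and Efemp2 by 0.58. Eln, named after its value was seen because elastin is a substrate of Loxl1, rose to 7207.7 ± 2843.1 in KO, against 3497.4 ± 813.9 in WT (SD, n = 4 each, log2 fold change 1.01, limma adjusted p = 0.017). The lower genes of this list numbered 1 to 3 without WT replicate 1, 3 or 4 or without KO replicate 1, 3 or 4. Of 16 collagens 6 were lower and 0 higher by limma (1 higher by DESeq2 or without KO replicate 4, 0 by edgeR and 0 at an unadjusted p under 0.05), and 2 were lower without WT replicate 4 and KO replicate 3 together.

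Receptors of matrix molecules, not only of the members, were lower or not called by limma. Of 22 matrix receptors 10 were lower in KO and 0 higher by limma or edgeR, with a median log2 fold change of -0.44. By DESeq2, at an unadjusted p under 0.05 in limma, or without WT replicate 2 or 4, 1 was higher. Over all genes tested, limma called 21.5% lower and 20.2% higher. The integrin chains Itgav and Itga4, which bind fibronectin, periostin or osteopontin, fell by 1.13 and 1.43, the hyaluronan receptor Cd44 by 2.50 and the endocytic receptor Lrp1, which clears thrombospondins, by 1.21. The thrombospondin 1 receptors Cd36 (0.02) and Cd47 (-0.19), named after their values were seen, did not pass. Of 18 genes of the TGF-beta axis 3 were higher and 3 lower, and 5 were lower under quantile normalization or DESeq2. Tgfb1 had 1757.9 ± 224.8 normalized counts in KO and 4316.7 ± 662.5 in WT (SD, n = 4 each, log2 fold change -1.29, limma adjusted p = 0.000436), and its receptor Tgfbr1 fell by 1.27. Tgfb3 rose by 0.63 and the inhibitory Smad7 by 0.60.

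**Figure D3:**
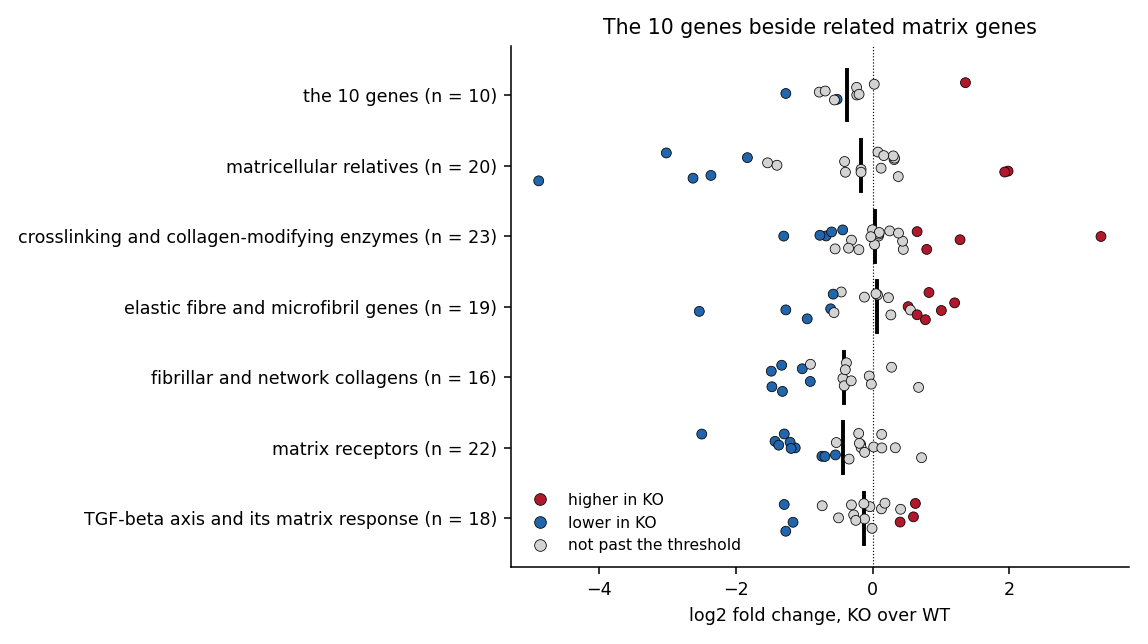
Each point is a gene placed by its log2 fold change (x axis, KO over WT) in the row of its list (y axis), coloured by its call, with a black bar at the median of the list. The median of the 10 genes lies at -0.38, between those of the crosslinking enzymes (0.03) and the matrix receptors (-0.44).

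The genes most like each member were sought among 13048 others with a mean of at least 50, by the root mean square difference of log2 values centred on their own mean over the 8 libraries. Fn1 was nearest to Mfap5 (0.143) and Col14a1 (0.179), and Sparc to Ephb2 (0.093) and Pi15 (0.133). Thbs2 was nearest to Phip (0.1) and Pdgfra (0.126), and Loxl1 to Malt1 (0.106) and Col18a1 (0.11). Tnc was nearest to Col4a2 (0.149) and Vdr (0.156), Loxl2 to Pdgfrl (0.119) and Bcl3 (0.167), and Postn to Nxpe5 (0.149) and Rasgef1a (0.166). Lox was nearest to Sycp3 (0.174) and Aplnr (0.236). Thbs1 was nearest to Hcn4 (0.258) and Irs1 (0.295), and Fbn1 to Vcan (0.347) and Gpr35 (0.357), looser matches than those of the other members. Among the 10 genes themselves, Fn1 and Loxl1 were each other's nearest (0.26), as were Sparc and Tnc (0.342), while the nearest member to Thbs1 lay at 1.07 (Loxl1).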

How the data were processed

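RNA libraries of 8 samples (4 KO, 4 WT) gave 1 table of values per gene. The deposited signal was a normalized count. STAR 2.7.7, DESeq2 and GRCm38.p6 are named, without their roles, per the submitters' processing notes, and neither the counter nor its strand setting or filters are given in the sources used here. All values above 0 were whole multiples of 1 step per library (tolerance 0.01 of a read), which gave back whole reads, 100% of values coming out whole. The smallest sum over 8 libraries was 10 reads. Of the gene identifiers, 24802 matched GENCODE M21 without their version.

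Genes at 10 or more in at least 4 libraries entered a limma fit (version 3.58.1, R 4.3.3) of log2(normalized count + 1) on group alone, with variance trend and robust moderation. Calls needed an adjusted p under 0.05 (Benjamini-Hochberg). Log2 fold changes set KO over WT, on a scale that understates changes of low genes. edgeR 4.0.16 (quasi-likelihood) and DESeq2 1.42.0 on the recovered reads, other pseudocounts, no filter, other scalings, a replicate block and left-out libraries were alternatives. edgeR called 7459 genes. Ratios used exact permutation tests. Within each group, every pair of libraries differed by more than sampling noise (chi-square per degree of freedom 27 to 453.9).

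The members and lists were chosen with earlier results of these data known. Open to naming were the members, Ccdc92 and, per list and direction, up to 4 called genes with the smallest p. In any case 6 genes were named (Col1a1, Col1a2, Col3a1, Tgfb1, Spp1, Bmp1). Also open to naming were up to 3 abundant genes per cell type list and the 2 nearest genes of each member. Not every gene open to naming is named. Schwann markers (1 of 6 tested higher, 1 lower) and skeletal muscle markers (1 of 5 higher, 1 lower) complete the lists of other cells, beside endothelium (7 of 10 higher), mural cells (2 of 11 higher), mesothelium (2 of 11 lower) and epididymis (6 of 9 lower). The lower mesothelium genes were the keratins Krt8 (-1.76) and Krt18 (-2.23, named after its values were seen). The other 9 were not called, and the list median log2 fold change was 0.53. The counts of mural, Schwann and skeletal muscle genes moved by up to 2 when single libraries were left out.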

Additional observations from a re-analysis of the deposited data

Results flagged for a closer look

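Of 20 sets of 4 values (10 genes in KO and in WT), 2 held a library far from the other 3, where chance flags about 1 in 20. Fn1 in KO replicate 2 was 50606.2, against 24564.3 to 26030 in the other KO libraries. Fbn1 in KO replicate 2 was 27481.3, against 5903.3 to 8396.6 in the other KO libraries.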

How the results depend on the processing

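The 3 called members kept their direction under every alternative run, with log2 fold changes of 1.06 to 1.59 (Thbs1), -0.62 to -0.43 (Thbs2) and -1.48 to -0.96 (Postn). They were past the threshold under 13, 11 and 13 of 17 alternatives. Fn1, Lox and Loxl1 never passed. The number of members called was 0 to 4 with single libraries left out and 0 without WT replicate 4 and KO replicate 3 together, which leaves 3 samples a group. Setting genes relative to the fibroblast list mean lowered the genes called to 4569, against 7423. Under quantile normalization 4593 genes were higher and 3257 lower, against 3592 and 3831, with an all-gene median of 0.098 against -0.007. Signs turned for Sparc under quantile normalization (-0.21) and with single libraries left out (-0.26 to 0.31), and for Fbn1 in edgeR (0.03), DESeq2 (0.01) and with single libraries left out (-0.73 to 0.01). The ratio of Lox over Loxl2 ranged from -0.58 to 0.27 with single libraries left out and was 0.08 without WT replicate 4 and KO replicate 3. Among cell type genes Prx ranged from -0.03 to 0.35 and Myh11 from -0.76 to 0.45 with single libraries left out, and Myh11 was 0.56 without WT replicate 4 and KO replicate 3. Over the named genes other than members, 72 of 1135 values under an alternative lost their call, among them Col3a1 and Loxl3 without WT replicate 4 and KO replicate 3 together, Fbln5 relative to the fibroblast list mean, and F13a1 and Loxl3 with the replicate block. The cause was not tested. Deviations of same-numbered samples had correlations of -0.143, 0.051, -0.041 and 0.172, within the range of -0.237 to 0.178 over all KO and WT pairs. These correlations cannot settle whether the numbers pair the samples. With a replicate block 6266 genes and 3 members were called, and the ratios could reach no exact p under 0.125.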

Other observations

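Lep, which encodes leptin and was named after its values were seen, had normalized counts of 49574.4, 80833.1, 22231 and 15451.6 in KO replicates 1 to 4, against 23157.7, 63660.8, 37914.5 and 46799.2 in WT replicates 1 to 4. Sparc, Tnc and Lox had the same order of libraries as Lep in both groups, and the other 7 members did not. With 4 libraries a group this is a description.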
